A study of Mus musculus with 8 samples.

Results

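Splenic B cells of wild-type (WT) C57BL/6 mice with a tumor were compared with those of WT mice without one, in 2 RNA sequencing libraries a side, which are 4 of the 8 libraries of the study. The tumor libraries are those whose tumor status is Tumor, and the nontumor libraries those whose tumor status is given as WT, read here as without a tumor because the series' design text speaks of such mice. The series title speaks of naive B cells and of pancreatic cancer, but no source used here gives the kind of tumor, its site or the age of the mice. The other 4 libraries come from mice of the same strain whose B cells lack Ebi3 (EBi3KO, given as B-EBi3-), 2 with a tumor and 2 without, and serve here only to show where WT differs. How the B cell deletion was driven is not stated there either. Nothing in the labels says that the libraries of a group are separate animals, so p-values measure the spread between libraries, which may be technical. That spread is pooled over all 4 groups, so a close pair lowers it for every test. On the first principal component, with 83.2% of the variance, the EBi3KO tumor libraries lay at 11.77 and 10.87. The other pairs lay at -51.53 and -76.36 (WT nontumor), 95.61 and 109.13 (WT tumor), and -38.81 and -60.68 (EBi3KO nontumor). Both WT tumor titles begin with IV and the titles of the other 6 libraries with OT.

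Naive B cells recirculate through spleen and lymph nodes, where follicular cells hold IgM and IgD on the surface and await antigen. The B cell receptor signals through CD79A and CD79B, SYK, BTK and calcium release, and is restrained by inhibitory receptors such as CD22 and SIGLEC-G. Resting cells are small, with little cytoplasm, and activation brings ribosome production, growth and, in part of the cells, antibody secretion. Ebi3 encodes the chain shared by the cytokines IL-27 and IL-35, and Il12a encodes the partner chain in IL-35.

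Expression is given as normalized counts, which are reads per gene divided by a library's size factor. The libraries held between 21291892 and 28297319 reads. Xist, which coats the inactive X chromosome, stood at 5.59 and 6.86 normalized counts in WT nontumor and at 19758 and 26191 in WT tumor. The Y chromosome genes Uty, Kdm5d and Eif2s3y were read in all libraries except the 2 of WT tumor, where each was at 0. Ddx3y, also of the Y chromosome, stood at 2353 and 2038 in WT nontumor and at 4.76 and 14.2 in WT tumor. Tumor status, sex pattern and title prefix therefore fall together in WT and cannot be told apart, whereas both EBi3KO groups carry the male pattern. The 100 most abundant genes took 37.5% and 37.9% of the reads in WT nontumor and 21.6% and 19.7% in WT tumor. The labelled cell type was borne out by its markers, since Cd79a stood between 45467 and 69999 and Ms4a1 between 43627 and 49896 in the 4 WT libraries.

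The difference between WT groups reached most of the measured transcriptome. A gene is called higher or lower here when limma's adjusted p (Benjamini-Hochberg over all tested genes) is below 0.05. Of 13011 tested genes 5157 (39.6%) were called higher and 5221 (40.1%) lower with the tumor, 79.8% in all, so that a call by itself sets no gene apart. Of the genes called, 2705 were at least 2-fold higher and 2785 at least 2-fold lower, while 233 were at least 8-fold higher and 418 at least 8-fold lower. The median log2 difference over all tested genes was 0.01, with an SD over genes of 1.46, against 0.66 in the same contrast in EBi3KO. Both WT tumor libraries lay above both WT nontumor libraries for 5963 genes (45.8%) and below them for 5934 (45.6%).

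Transcript length ordered these differences. Among 12866 genes with an annotated length, the median log2 difference ran from -1.19 in the shortest decile, transcripts of up to 1028 bases, to 1.17 in the longest decile, transcripts from 5530 bases. In the shortest decile 14.3% of genes were called higher and 73.7% lower, and in the longest 76.4% and 10.8%. Across genes, which are not independent, Spearman's correlation between length and the log2 difference was 0.436. In EBi3KO the deciles ran from -0.274 to 0.256. Replicate WT libraries carried the trend too. Library 2 minus library 1 ran from 0.119 to -0.22 over the deciles in WT nontumor and from -0.138 to 0.143 in WT tumor. The same difference ran from 0.06 to -0.089 in EBi3KO nontumor, while EBi3KO tumor had hardly any trend (0.004 to -0.0). Counts of calls, list medians and most gene values are therefore also given after each library's trend on length and GC content was removed, called trend-adjusted below, where 4729 genes (36.8%) were higher and 4892 (38.0%) lower. Of the 5091 genes called higher that have a length, 3968 were still called higher after this adjustment and 240 were called lower. Of the 5179 called lower, 4073 were still lower and 196 were called higher. Counts of called list members below stand beside 39.6% higher and 40.1% lower of all tested genes, and 36.8% and 38.0% after trend adjustment.

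**Figure D1:**
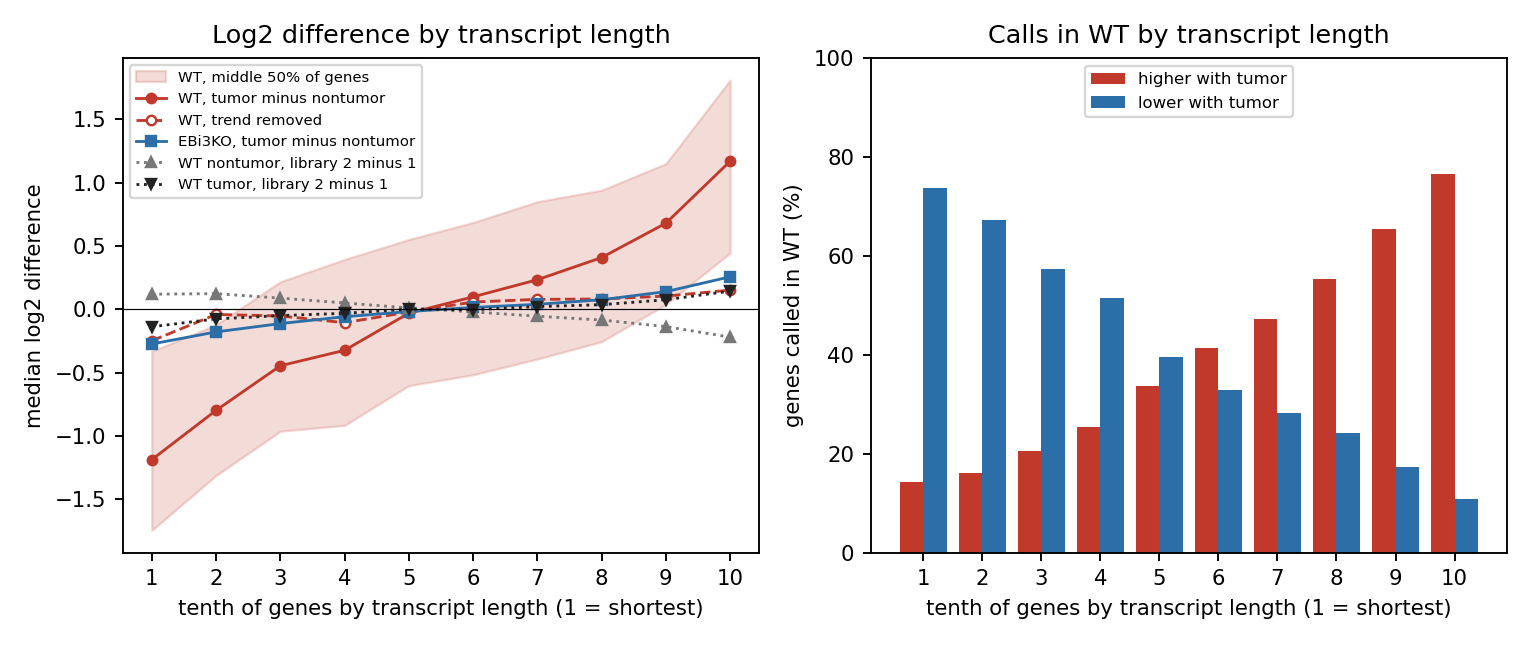
Left, median log2 difference (y axis) in each decile of genes ranked by transcript length (x axis) for the tumor contrast in WT (red, with the middle 50% of genes shaded), the same trend-adjusted (open circles), the contrast in EBi3KO (blue) and the difference between replicate libraries (gray and black triangles). Right, percentage of genes called higher (red) or lower (blue) in WT in each decile; calls run from 14.3% higher in the shortest decile to 76.4% in the longest.

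B cell identity genes parted by direction. Of 21 tested genes of follicular and naive B cells 14 were called higher, 3 lower and 4 neither, with a median log2 difference of 0.62 (trend-adjusted 16 higher and 3 lower, median 0.54) beside 0.01 over all tested genes.

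Cd22, an inhibitory coreceptor that binds sialic acid, went from 13280 and 10413 to 30317 and 32946 (log2 difference 1.43, limma adjusted p = 1.49e-05; trend-adjusted 1.27). Ebf1, a transcription factor that establishes the B lineage, went from 1056 and 712 to 2816 and 3277 (1.81, limma adjusted p = 1.25e-05; trend-adjusted 1.49). Bach2, which holds back plasma cell differentiation, went from 2016 and 1690 to 8141 and 9039 (2.22, limma adjusted p = 3.8e-07), and 1.01 of that remained after trend adjustment. For these 3 genes every WT tumor library lay above both WT nontumor libraries, as for 45.8% of all tested genes.

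Other genes of the receptor and of the naive state did not follow. Cd79a, the signalling chain of the receptor, went from 67671 and 69999 to 50935 and 45467 (log2 difference -0.52, limma adjusted p = 0.000682), but stood at 0.16 after trend adjustment and at 0.91 under quantile normalization, so its direction depends on the scaling. Cd79b, its partner chain, went from 58345 and 64478 to 44473 and 40064 (-0.54, limma adjusted p = 0.000693), and it too turned, to 0.22 after trend adjustment and 0.84 under quantile normalization. Ms4a1, which encodes CD20, differed by 0.14 (limma adjusted p = 0.142) and stood at -0.17 after trend adjustment. Klf2, a transcription factor of quiescence and recirculation, fell from 11946 and 11133 to 5881 and 5208 (log2 difference -1.06, limma adjusted p = 6.37e-05; trend-adjusted -0.48). It was the largest fall in the list.

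The intracellular arm of B cell receptor signalling was higher with the tumor in most members. Of 31 tested signalling genes 24 were called higher and 3 lower (median 0.61), and 22 higher and 4 lower after trend adjustment (median 0.41). Over all tested genes the shares were 39.6% and 40.1%, and 36.8% and 38.0% after trend adjustment. The length decile that holds the median length of these signalling genes had a median of 0.23. Itpr1, the calcium channel of the endoplasmic reticulum opened by inositol trisphosphate, stood at 918 and 626 against 3881 and 4505 (log2 difference 2.46, SE 0.18; trend-adjusted 1.14). Prkcb, the protein kinase C isoform that relays the signal to NF-kB, stood at 7265 and 6136 against 16295 and 18452 (1.38; trend-adjusted 1.31). Malt1, the protease of the complex downstream of it, rose by 1.45 (0.78) and Syk, the proximal kinase, by 0.91 (0.41), with trend-adjusted values in parentheses. Adjusted p by limma was between 3.48e-06 and 4.21e-05 for these 4 genes. Their WT tumor libraries lay above the nontumor ones, as for 45.8% of all tested genes. Vav3, an exchange factor for small GTPases, was called higher at 0.36 (limma adjusted p = 0.00882) and stood at -0.16 (0.114) after trend adjustment.

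Of 14 tested inhibitory receptors that restrain this signal 6 were called higher and 5 lower (median 0.27), shares near the 39.6% and 40.1% of all tested genes, and 8 and 4 after trend adjustment. Siglecg, the lectin that dampens calcium flux in B cells, went from 4307 and 3048 to 11194 and 12371 (log2 difference 1.70, limma adjusted p = 7.48e-05; trend-adjusted 1.78). Ceacam1, an adhesion molecule with inhibitory tyrosine motifs, went from 875 and 764 to 2497 and 2771 (1.68, limma adjusted p = 1.53e-06; trend-adjusted 2.06). Cd72, another inhibitory coreceptor, rose by 0.68 (limma adjusted p = 0.000159; trend-adjusted 1.31). Lair1, a collagen receptor with inhibitory motifs, went the other way, from 1480 and 1412 to 246 and 272 (-2.48, SE 0.10, limma adjusted p = 3.1e-07; trend-adjusted -2.64). In EBi3KO Lair1 fell by 0.49, and the difference between the genotypes' effects was -1.99 (limma adjusted p = 6.83e-05).

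**Figure D2:**
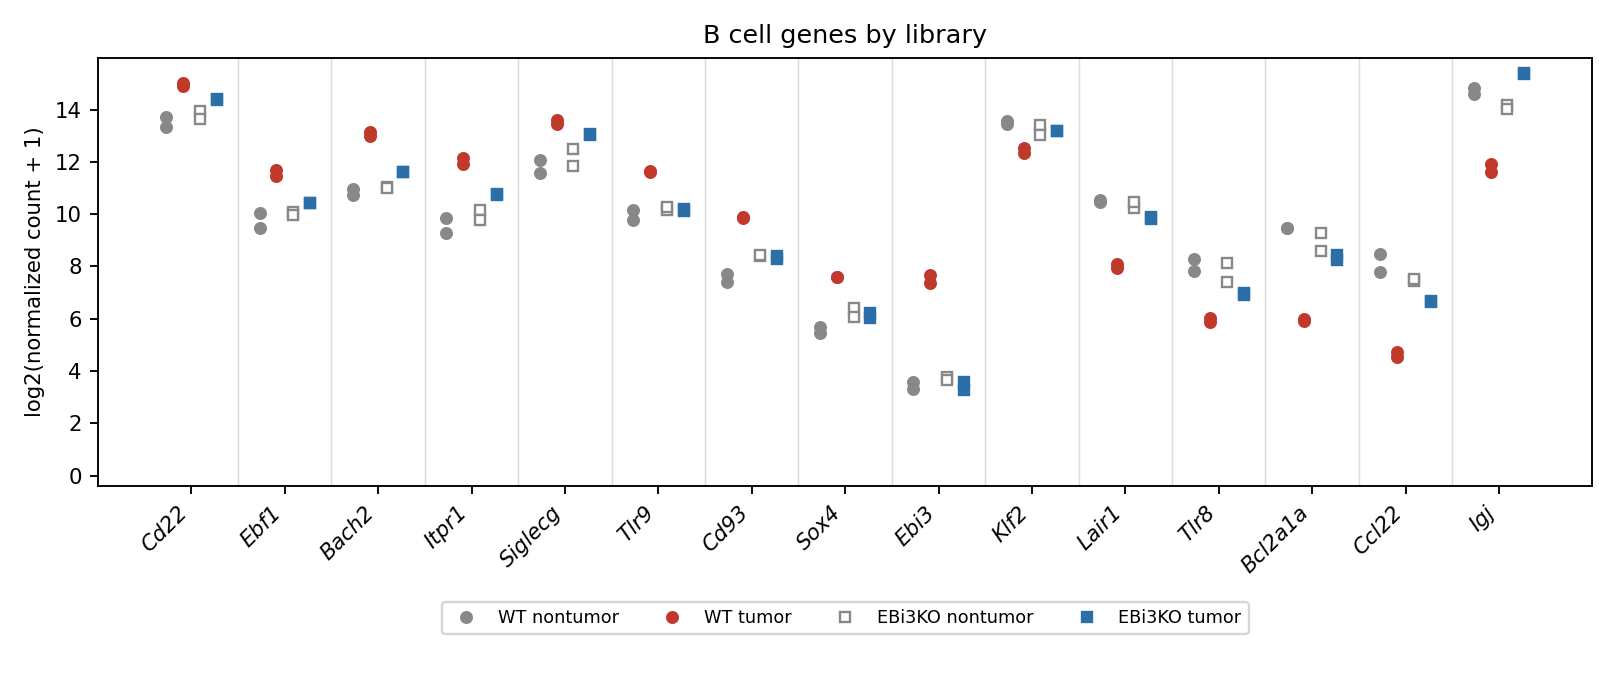
Level of 15 genes from the B cell, innate sensor, cytokine, plasma cell and BCL2 family lists as log2(normalized count + 1) (y axis). Each of the 8 libraries has 1 point: WT nontumor gray circles, WT tumor red circles, EBi3KO nontumor open squares, EBi3KO tumor blue squares. Bulk libraries do not tell which cells a gene was read in. The red and gray circles do not overlap for any gene shown. Over all tested genes the WT tumor libraries lay above the nontumor ones for 45.8% and below them for 45.6%. For Cd93 the WT tumor libraries (931 and 956) lie above all other libraries.

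Of 15 tested genes of B cell precursors and recent spleen immigrants 7 were called higher and 6 lower, near the 39.6% and 40.1% of all tested genes. Cd93, a marker of transitional B cells, stood at 206 and 170 in WT nontumor and at 931 and 956 in WT tumor (log2 difference 2.33, SE 0.12, limma adjusted p = 7.69e-07; trend-adjusted 1.31). Sox4, a transcription factor of early B cell development, stood at 50.3 and 42.5 against 192 and 193 (2.04, limma adjusted p = 1.64e-05; trend-adjusted 1.5). Neither rose in EBi3KO, where Cd93 differed by -0.07 and Sox4 by -0.11, and the genotypes' effects differed by 2.40 (limma adjusted p = 5.61e-05) and 2.14 (0.000526).

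Rag1, a subunit of the V(D)J recombinase, was at 70.4 and 56.2 against 199 and 215 (1.70, limma adjusted p = 0.0116), which became 0.67 (adjusted p = 0.246) after trend adjustment. Vpreb3, a short transcript of precursor cells, was called lower at -0.43 and called higher at 0.57 after trend adjustment. Dntt, which adds untemplated nucleotides at V(D)J joints, fell from 41.4 and 37.0 to 7.15 and 7.86 (-2.24, limma adjusted p = 0.000231; trend-adjusted -2.21). The list as a whole thus has no single direction, and its median of 0.15 turned to -0.02 without WT nontumor replicate 2 and to -0.05 without WT tumor replicate 1.

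Of 25 tested cytokine genes 5 were called higher and 17 lower (median -1.40), beside 39.6% and 40.1% of all tested genes. After trend adjustment 7 were higher and 12 lower (median -0.32). Ebi3 had 8.94 and 11 normalized counts in WT nontumor and 201 and 164 in WT tumor (log2 difference 4.06, SE 0.30, limma adjusted p = 4.77e-06; trend-adjusted 5.02). The EBi3KO libraries held 12.8 and 11.5 without a tumor and 8.7 and 11 with one, close to WT nontumor. Il12a went from 402 and 252 to 460 and 512 (0.60, limma adjusted p = 0.034), and stood higher after trend adjustment at 1.13 (adjusted p = 0.00343). Before the adjustment the call ended without WT nontumor replicate 2 (0.27, adjusted p = 0.245) and also without WT tumor replicate 1 (adjusted p = 0.0679) or WT tumor replicate 2 (0.143). Ccl22, a chemokine that draws CCR4-bearing T cells, fell from 221 and 353 to 25.4 and 22 (-3.51, limma adjusted p = 2.28e-06; trend-adjusted -3.45). Ltb, which encodes lymphotoxin beta and is needed for follicle structure, went from 11365 and 13605 to 7086 and 6041 (-0.93, limma adjusted p = 4.53e-05), and was called higher at 0.29 after trend adjustment.

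Of 15 tested plasma cell genes 4 were called higher and 9 lower (median -0.45), which became 6 and 6 (median 0.10) after trend adjustment, so the list has no stable direction. Igj, now called Jchain, which encodes the chain that joins secreted IgM or IgA units, went from 28844 and 24528 to 3900 and 3145 (log2 difference -2.92, SE 0.12, limma adjusted p = 2.99e-07; trend-adjusted -2.58). Tnfrsf17, which encodes the plasma cell survival receptor BCMA, went from 32.4 and 24.7 to 4.76 and 3.15 (-2.58, limma adjusted p = 0.000138; trend-adjusted -1.65). In EBi3KO both were higher with the tumor, Igj from 18319 and 16540 to 42735 and 42448 and Tnfrsf17 from 12.8 and 14.0 to 40.0 and 45.8. The genotypes' effects differed by -4.22 for Igj (limma adjusted p = 5.13e-06) and by -4.19 for Tnfrsf17 (0.000395). In a bulk library, fewer plasma cells and less RNA per cell cannot be told apart. Immunoglobulin constant region genes were not analysed here.

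Of 29 tested innate sensor genes 13 were called higher and 9 lower (median 0.13), beside 39.6% and 40.1% of all tested genes. After trend adjustment 10 were higher and 8 lower (median 0.01), beside 36.8% and 38.0%. Tlr9, the endosomal receptor for unmethylated CpG DNA, went from 1136 and 886 to 3229 and 3105 (log2 difference 1.66, SE 0.12, limma adjusted p = 3.59e-06; trend-adjusted 1.63). It did not rise in EBi3KO (-0.06), and the effects differed by 1.72 (limma adjusted p = 0.000191). Tlr1, which pairs with TLR2 on lipopeptides, rose by 1.42 (limma adjusted p = 1.35e-05; trend-adjusted 1.2). Tlr8 fell from 311 and 228 to 65.1 and 57.4 (-2.10, limma adjusted p = 5.79e-05; trend-adjusted -2.48). These 2 rises and the fall held their calls after trend adjustment.

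Of 28 tested MHC class I genes 13 were called higher and 11 lower, near the 39.6% and 40.1% of all tested genes (median 0.00; trend-adjusted 13 and 8, median 0.24). B2m, the light chain of all class I molecules, went from 76925 and 79157 to 44612 and 39617 (-0.89), H2-D1 fell by 0.75 and H2-K1 by 0.34. Those directions depend on the scaling: under quantile normalization B2m stood at 0.50, H2-D1 at 0.54 and H2-K1 at 0.87, and after trend adjustment H2-K1 stood at 0.27.

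Only 5 genes had 0 reads in both libraries of one WT group and at least 100 normalized counts in each library of the other. H2-Q6, a nonclassical class I gene on chromosome 17, was 1 of them. The other 4, 3 on the Y chromosome and 1 a pseudogene, were at 0 in WT tumor but were read in EBi3KO tumor. H2-Q6 stood at 993 and 2109 in WT tumor, at least 415-fold higher than WT nontumor against a floor of 3 reads per library. It was also present in EBi3KO tumor, at 189 and 573, and at 0 and 1.27 in EBi3KO nontumor. Of its 31-base stretches 50.3% also occur in another gene, so reads of related genes could be counted there. H2-Q1 went from 3.35 and 9.6 to 87.3 and 128 (3.97, limma adjusted p = 4.75e-05; trend-adjusted 4.01). Nlrc5, the transactivator of class I genes, went from 696 and 506 to 2438 and 2834 (2.14, limma adjusted p = 2.64e-05; trend-adjusted 1.49).

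Chromatin regulators were higher almost throughout. Of 33 tested genes 32 were called higher and 1 lower, with a median log2 difference of 1.77. These are long transcripts, and the length decile that holds their median length had a median of 1.17; after trend adjustment 29 were higher and 1 lower, with a median of 0.89. Crebbp, a histone acetyltransferase, went from 324 and 222 to 1606 and 1969 (2.72, SE 0.17, limma adjusted p = 2.29e-06; trend-adjusted 1.58). Tet2, which oxidises methylated cytosine, went from 160 and 87.8 to 870 and 976 (2.95, limma adjusted p = 0.000163; trend-adjusted 1.62). Mll1, now Kmt2a, a histone H3 lysine methyltransferase, rose by 2.85 (trend-adjusted 1.14). Ezh2, the catalytic subunit of Polycomb repressive complex PRC2, was the exception at -0.38 (limma adjusted p = 0.00476; trend-adjusted -0.56).

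Numbered zinc finger genes, mostly KRAB repressors, rose in 238 of 306 tested members and fell in 22 (median 0.92). Over all tested genes 39.6% were called higher and 40.1% lower. After trend adjustment 220 rose and 17 fell (median 0.67). Zfp369 went from 42.5 and 30.2 to 435 and 514 (log2 difference 3.69, SE 0.20, limma adjusted p = 1.18e-06; trend-adjusted 3.63). It differed by 0.36 in EBi3KO (adjusted p = 0.19), and the genotypes' effects differed by 3.32 (limma adjusted p = 0.000135).

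Long noncoding RNAs held some of the largest rises. Of 28 tested long noncoding and snoRNA host genes 15 were called higher and 9 lower (median 0.71; trend-adjusted 18 and 5, median 0.80). Neat1, the scaffold of paraspeckles, stood at 746 and 228 against 7170 and 7891 (log2 difference 4.19, SE 0.57, limma adjusted p = 0.000137; trend-adjusted 4.36). Malat1, a nuclear speckle RNA, stood at 2782 and 936 against 18041 and 22032 (3.63, SE 0.56, limma adjusted p = 0.000303; trend-adjusted 4.35). For both, WT nontumor replicate 1 lay well above replicate 2, and neither reached a WT tumor library. Kcnq1ot1 went from 1314 and 941 to 8634 and 11446 (3.16), and stood at 0.07 (adjusted p = 0.586) after trend adjustment, with an annotated length of 93092 bases. Gas5, a host of small nucleolar RNAs, was called lower at -0.32 and higher at 0.40 after trend adjustment. The lengths used for Malat1 and Neat1 are medians over annotated transcripts, 606 and 2017 bases, so their adjustment rests on short isoforms.

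Of 33 core spliceosome genes 7 were called higher and 23 lower (median -0.80; trend-adjusted 3 and 22, median -0.39), while of 34 SR and hnRNP genes 17 were higher and 11 lower (median 0.22; trend-adjusted 21 and 11). The difference between these lists was not tested. The SR and hnRNP shares before trend adjustment lie near those of all tested genes, 39.6% higher and 40.1% lower. Srrm2, a nuclear speckle scaffold, went from 3775 and 2292 to 21779 and 26171 (log2 difference 3.02, limma adjusted p = 1.03e-05; trend-adjusted 1.92). Clk1, a kinase of SR proteins, rose by 1.70 (limma adjusted p = 0.000651; trend-adjusted 1.77). Hnrpll, now Hnrnpll, which drives exon skipping of the CD45 transcript and acts in plasma cell splicing, fell from 372 and 439 to 36.5 and 32.2 (-3.52, SE 0.15, limma adjusted p = 3.83e-07; trend-adjusted -3.76).

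The protein synthesis machinery was lower as a group. All 81 tested cytosolic ribosomal protein genes were called lower (median -1.80), beside 40.1% of all tested genes, and all 81 after trend adjustment (median -0.94). They took 23% and 23.5% of reads in WT nontumor and 9.99% and 8.58% in WT tumor, against 20.9% and 21.4% and then 17.6% and 17.7% in EBi3KO. Under quantile normalization the median was -0.65. The length decile that holds their median length had a median of -1.19. Rps21 went from 64097 and 66560 to 13234 and 10121 (-2.50, SE 0.12, limma adjusted p = 6.61e-07; trend-adjusted -1.71), and Rplp1, of the ribosomal stalk, from 83308 and 108147 to 19900 and 13875 (-2.51; trend-adjusted -1.46). The effect differed from that in EBi3KO for 80 of the 81 genes, and for 71 after trend adjustment, beside 52.9% and 38.8% of all tested genes.

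Other parts of this machinery followed. Of 38 translation factors 28 were called lower and 6 higher (median -0.85; trend-adjusted 31 and 3, median -0.67). Eef1a1, the elongation factor that brings aminoacyl-tRNA and the most abundant gene of every library, went from 668998 and 640122 to 335568 and 296182 (-1.05, limma adjusted p = 0.000142; trend-adjusted -0.91). Eif4g3, a scaffold of cap-dependent initiation, rose by 1.58 (trend-adjusted 0.93). Of 76 mitochondrial ribosomal genes 75 were called lower and 0 higher (median -1.05), and 55 and 4 after trend adjustment (median -0.46). Mrpl14 among them fell from 774 and 1081 to 223 and 165 (-2.25; trend-adjusted -1.05).

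Proteasome and cytoskeleton genes had the same direction. Of 39 proteasome genes 37 were called lower and 1 higher (median -1.12), beside 40.1% and 39.6% of all tested genes. After trend adjustment 36 were lower and 1 higher (median -0.58). Psmb5, a catalytic subunit of the constitutive core, went from 2854 and 3783 to 1131 and 969 (-1.65; trend-adjusted -0.52), and the exception was Psmb11, the thymus-type subunit, at 25.7 and 6.86 against 92.1 and 101 (2.75, limma adjusted p = 0.000827; trend-adjusted 2.33). Of 26 actin, tubulin and related genes, a list of short transcripts, 24 were called lower and 1 higher (median -1.06). After trend adjustment 20 of them were lower and 2 higher (median -0.49). The length decile that holds their median length had a median of -0.45. Actb, which encodes beta-actin, fell by 0.87 (limma adjusted p = 8.28e-05) but stood at 0.62 under quantile normalization. Tmsb4x, the actin-sequestering thymosin beta 4, went from 205369 and 211059 to 76155 and 68628 (-1.53; trend-adjusted -0.73).

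Growth signalling did not move as a block. Of 26 PI3K and mTOR pathway genes 16 were called higher and 9 lower (median 0.58), beside 39.6% and 40.1% of all tested genes. After trend adjustment 11 were higher and 10 lower (median 0.13). Rictor, the defining subunit of mTORC2, went from 705 and 560 to 2707 and 3232 (log2 difference 2.23; trend-adjusted 0.86). Eif4ebp1, a repressor of cap-dependent translation that mTORC1 inactivates, fell from 714 and 885 to 264 and 223 (-1.71, limma adjusted p = 5.06e-06; trend-adjusted -1.67).

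**Figure D3:**
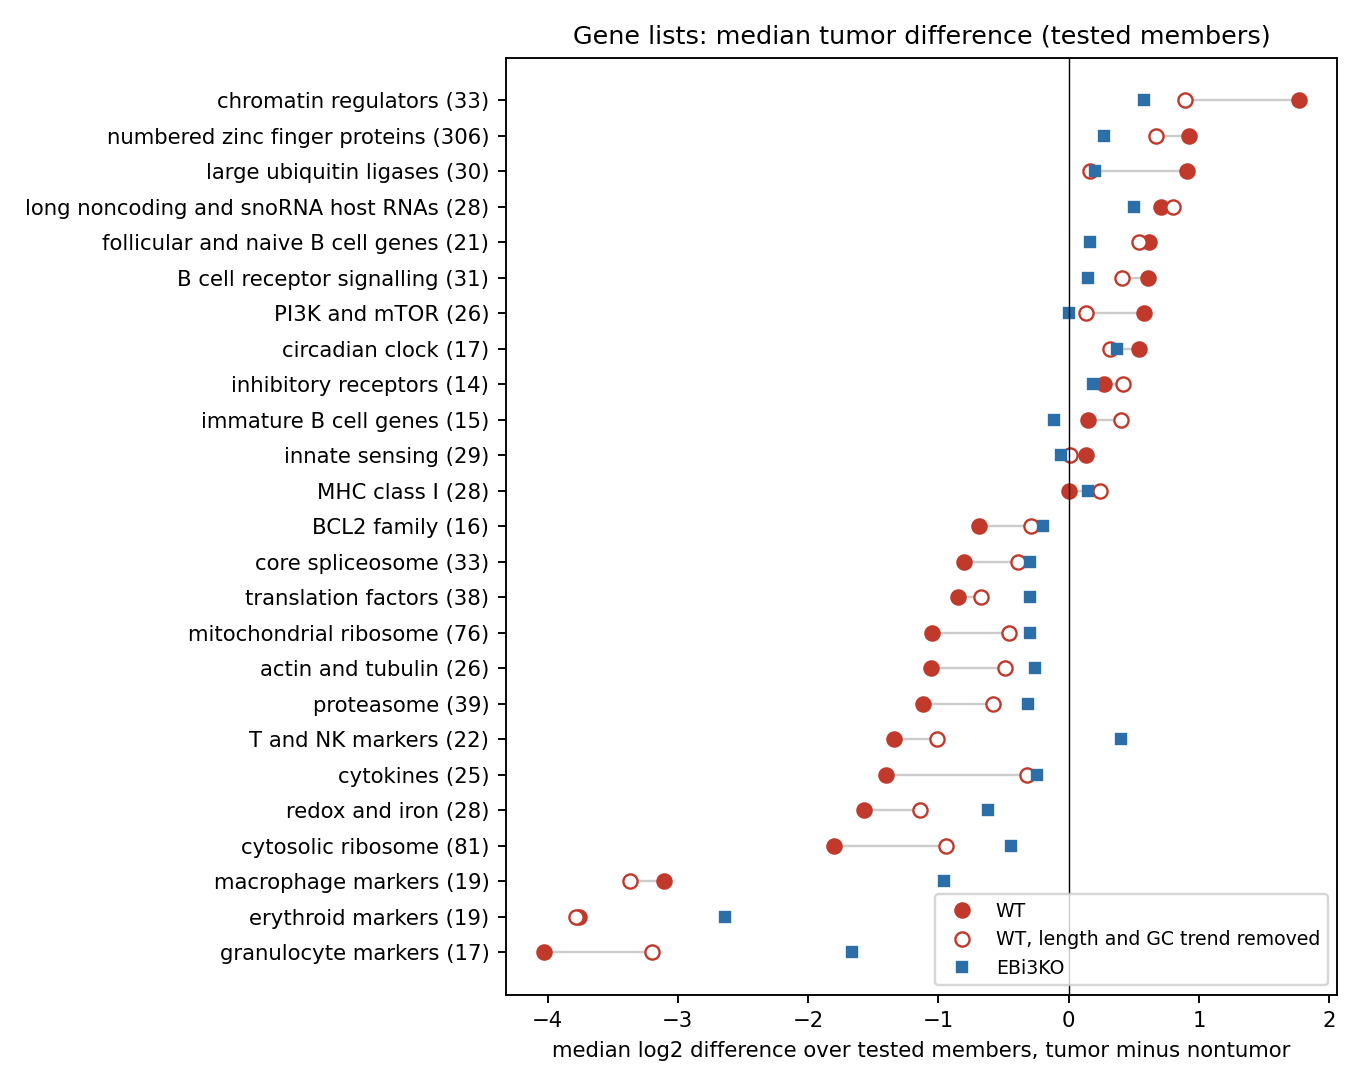
Median log2 difference, tumor minus nontumor (x axis), over the tested members of 25 gene lists (y axis, number of tested members in parentheses) in WT (filled red), in WT after trend adjustment (open red) and in EBi3KO (blue squares). Chromatin regulators have the highest WT median at 1.77 and granulocyte markers the lowest at -4.03, and gray lines join the WT values before and after adjustment.

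Antioxidant and iron-handling genes were lower in most members. Of 28 tested genes 24 were called lower and 0 higher (median -1.57), and the same counts held after trend adjustment (median -1.14); the length decile that holds their median length had a median of -0.45. Nqo1, a quinone reductase and target of the factor NRF2, went from 168 and 268 to 6.35 and 6.29 (log2 difference -4.86, SE 0.25, limma adjusted p = 8.92e-07; trend-adjusted -4.54). Prdx2, a peroxiredoxin abundant in red cells, went from 13434 and 16810 to 1864 and 1570 (-3.13, limma adjusted p = 2.05e-07; trend-adjusted -2.70). Ftl1, the ferritin light chain, went from 115353 and 157018 to 19781 and 16371 (-2.90; trend-adjusted -1.74). Macrophage and erythroid markers moved with them: the 19 macrophage markers took 0.733% and 0.797% of reads in WT nontumor and 0.0962% and 0.085% in WT tumor, and the 19 erythroid markers 0.79% and 0.733% against 0.136% and 0.101%. Their part in the redox result was not tested.

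The metallothioneins, short proteins that bind zinc and copper, also fell. Their promoters are shown because both genes fell together and because metallothionein genes are known for metal response elements, the sites bound by the zinc-sensing factor MTF1. Windows of 300 bases, from 250 before to 50 after the annotated start, come from RefSeq on GRCm38.p6, on the plus strand at chr8:94178839-94179138 for Mt1 and chr8:94172368-94172667 for Mt2. Capitals mark the cores TGCGCNC and TGCACNC, searched on both strands.
Mt1: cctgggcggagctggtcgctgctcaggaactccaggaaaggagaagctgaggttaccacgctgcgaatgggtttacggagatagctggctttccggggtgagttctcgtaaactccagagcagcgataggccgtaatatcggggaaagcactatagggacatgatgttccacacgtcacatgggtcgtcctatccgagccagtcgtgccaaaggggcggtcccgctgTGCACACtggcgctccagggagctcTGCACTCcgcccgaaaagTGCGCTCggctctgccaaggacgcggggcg
Mt2: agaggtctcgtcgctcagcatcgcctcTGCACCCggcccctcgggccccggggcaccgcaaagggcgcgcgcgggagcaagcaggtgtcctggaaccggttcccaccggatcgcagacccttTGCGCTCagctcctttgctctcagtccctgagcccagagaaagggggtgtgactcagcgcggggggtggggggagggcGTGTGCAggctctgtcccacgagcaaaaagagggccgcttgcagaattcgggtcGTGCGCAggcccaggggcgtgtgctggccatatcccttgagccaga
The Mt1 window holds 3 matches and the Mt2 window 4. At least 3 matches occur in 1.97% of the 32851 promoters of that table and at least 4 in 0.517%. A match is a description of the letters only. The windows follow the RefSeq start, while GENCODE places that of Mt2 at 94172664, near the window's end. Sites further downstream were not searched.

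Mt1 stood at 388 and 694 normalized counts in WT nontumor and at 25.4 and 19.7 in WT tumor (log2 difference -4.48, SE 0.25, limma adjusted p = 1.27e-06; trend-adjusted -3.42). Mt2 stood at 163 and 342 against 3.97 and 3.15 (-5.71, SE 0.32, limma adjusted p = 1.38e-06; trend-adjusted -4.80). In EBi3KO they fell less, by 1.37 and 1.85, and the genotypes' effects differed by -3.10 for Mt1 (limma adjusted p = 0.000346) and -3.85 for Mt2 (0.000407). Both nontumor libraries lay above both tumor libraries for each gene in each genotype, as in WT for 45.6% of all tested genes.

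Inducible heat shock genes were among the largest falls outside the Y chromosome. Hspa1a and Hspa1b encode near-identical HSP70 chaperones in the class III region of the MHC and are known as targets of the heat shock factor HSF1. Their promoter windows, on the minus strand at chr17:34972107-34972406 and chr17:34959189-34959488 and from the same RefSeq table, are shown because the pair fell together; capitals mark a pair of inverted heat shock units, searched as GAANNTTC and TTCNNGAA, each of which reads the same on both strands.
Hspa1a: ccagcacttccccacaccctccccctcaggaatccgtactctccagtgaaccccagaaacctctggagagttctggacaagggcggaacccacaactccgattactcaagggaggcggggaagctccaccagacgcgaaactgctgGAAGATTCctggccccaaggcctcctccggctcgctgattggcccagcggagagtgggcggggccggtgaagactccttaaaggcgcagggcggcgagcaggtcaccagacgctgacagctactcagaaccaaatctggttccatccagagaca
Hspa1b: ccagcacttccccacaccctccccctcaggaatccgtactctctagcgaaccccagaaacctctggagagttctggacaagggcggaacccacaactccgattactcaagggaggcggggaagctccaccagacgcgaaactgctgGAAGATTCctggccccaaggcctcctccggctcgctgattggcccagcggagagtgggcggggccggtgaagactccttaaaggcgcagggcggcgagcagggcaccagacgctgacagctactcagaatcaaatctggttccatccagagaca
The windows differ at 4 of 300 positions and hold 1 match each; at least 1 match is found in 15.1% of all promoters. Both also hold a CCAAT box, a motif of 37.4% of the promoters.

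Hspa1a stood at 11027 and 6376 in WT nontumor and at 35.7 and 16.5 in WT tumor (log2 difference -8.37, SE 0.84, limma adjusted p = 2.29e-05; trend-adjusted -8.20), and Hspa1b at 21041 and 13714 against 54.0 and 53.5 (-8.28, SE 0.68, limma adjusted p = 7.73e-06; trend-adjusted -8.10). In EBi3KO the nontumor libraries held 35480 and 3801 for Hspa1a and the tumor libraries 67.0 and 71.5, a fall of -7.37. The genotypes' effects on Hspa1a differed by -1.0 (limma adjusted p = 0.50) and on Hspa1b by -1.83 (0.138), neither past the threshold. Of the 31-base stretches of Hspa1a 63.8% also occur in Hspa1b, so reads cannot be assigned to one of them with certainty. Of the glucocorticoid-responsive genes, a list that holds Mt1 and Mt2, 3 of 15 tested members were called higher and 8 lower (median -0.28). Over all tested genes 39.6% were called higher and 40.1% lower. After trend adjustment 2 members were higher and 7 lower (median -0.27). Tsc22d3, which encodes GILZ and is induced by glucocorticoids, stood at 18822 and 13759 against 17959 and 17855 in WT (0.15, limma adjusted p = 0.412; trend-adjusted 0.70, adjusted p = 0.00949). In EBi3KO it rose by 1.24 (limma adjusted p = 0.00156). The genotypes' effects on Tsc22d3 differed by -1.09 (limma adjusted p = 0.00509), and by -0.68 after trend adjustment (limma adjusted p = 0.0783).

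Among cell survival genes of the BCL2 family 5 of 16 tested members were called higher and 10 lower (median -0.69). Over all tested genes 39.6% were called higher and 40.1% lower. After trend adjustment 6 members were higher and 7 lower (median -0.29). Bcl2a1a, an inducible antiapoptotic member, went from 708 and 704 to 59.6 and 62.1 (log2 difference -3.51, SE 0.20, limma adjusted p = 1.28e-06; trend-adjusted -2.74), but 79.6% of its 31-base stretches occur in another gene of the same cluster. Bmf, a proapoptotic BH3-only gene, went from 724 and 896 to 1989 and 1967 (1.29, limma adjusted p = 1.3e-05), and Mcl1, on which B cell survival depends, from 20083 and 20168 to 28762 and 28543 (0.51, limma adjusted p = 0.00015). Both rises held after trend adjustment, at 1.07 and 0.73.

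The circadian clock was measured because the labels do not give the hour of collection. Of 17 tested clock genes 10 were called higher and 2 lower (median 0.54), beside 39.6% and 40.1% of all tested genes. After trend adjustment 8 were higher and 3 lower (median 0.32). Nr1d1, the repressor REV-ERB alpha, fell from 134 and 161 to 46.1 and 52.7 (log2 difference -1.56, limma adjusted p = 5.5e-05; trend-adjusted -1.41), and Per1, of the negative limb, went from 1042 and 626 to 1623 and 1693 (1.04, limma adjusted p = 0.00437; trend-adjusted 0.80). Clock itself rose by 1.40 and by 0.22 (adjusted p = 0.0446) after trend adjustment. In EBi3KO 7 of the 17 clock genes were called higher and 1 lower, beside 14.1% and 18.5% of all tested genes there.

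Several of the largest rises were in genes hardly read without a tumor. Zbed6, a transposase-derived repressor of Igf2 that lies within an intron of Zc3h11a, went from 98.4 and 28.8 to 1871 and 2555 (log2 difference 5.33, SE 0.45, limma adjusted p = 9.26e-06; trend-adjusted 4.56). It shares its strand with Zc3h11a, and all of its 31-base stretches occur in another annotated gene. Vasn, a membrane protein that binds TGF-beta, went from 6.71 and 6.86 to 230 and 386 (5.26, limma adjusted p = 3.69e-06; trend-adjusted 5.42), did not rise in EBi3KO (-0.38) and differed between genotypes by 5.65 (limma adjusted p = 0.000175). Daf2, a complement regulator also known as CD55b, went from 15.7 and 5.49 to 253 and 336 (4.81, limma adjusted p = 3.95e-05; trend-adjusted 5.41). Cpt1b, the muscle-type carnitine palmitoyltransferase, had 0 and 16.5 against 177 and 199 (5.50, SE 1.02, limma adjusted p = 0.00096; trend-adjusted 5.55). Of the 31-base stretches of Cpt1b 79.7% also occur in a gene that overlaps it on the same strand. For Daf2 31.8% occur in another gene, so reads of other genes could be counted in both.

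Amy2a5, which encodes pancreatic amylase, had no reads in any of the nontumor libraries of both genotypes. It stood at 48.4 and 53.5 in WT tumor and at 248 and 313 in EBi3KO tumor, and the genotypes' effects differed by -2.43 (limma adjusted p = 0.0069). Of its 31-base stretches 62.3% occur in another gene. Of the 8 tested pancreas and epithelium markers 3 were called higher and 4 lower, and they took 0.00695% and 0.00822% of reads in WT nontumor and 0.00166% and 0.0014% in WT tumor.

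Other large falls included a transporter and metabolic enzymes. Slc38a5, a glutamine and glycine transporter, went from 586 and 653 to 6.35 and 3.15 (log2 difference -6.81, SE 0.26, limma adjusted p = 2.08e-07; trend-adjusted -6.52). Sphk1, which makes sphingosine 1-phosphate, went from 423 and 560 to 4.76 and 3.93 (-6.51, SE 0.20, limma adjusted p = 1.06e-07; trend-adjusted -6.07). Sdsl, a serine dehydratase-like enzyme, had 69.3 and 137 against 0 in both tumor libraries. All 3 also fell in EBi3KO, by 3.97, 2.85 and 2.41 on the log2 scale. The erythroid marker Klf1 was lower in both genotypes as well (-6.03 in WT, -3.66 in EBi3KO). The part of other cells in these falls was not tested.

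**Figure D4:**
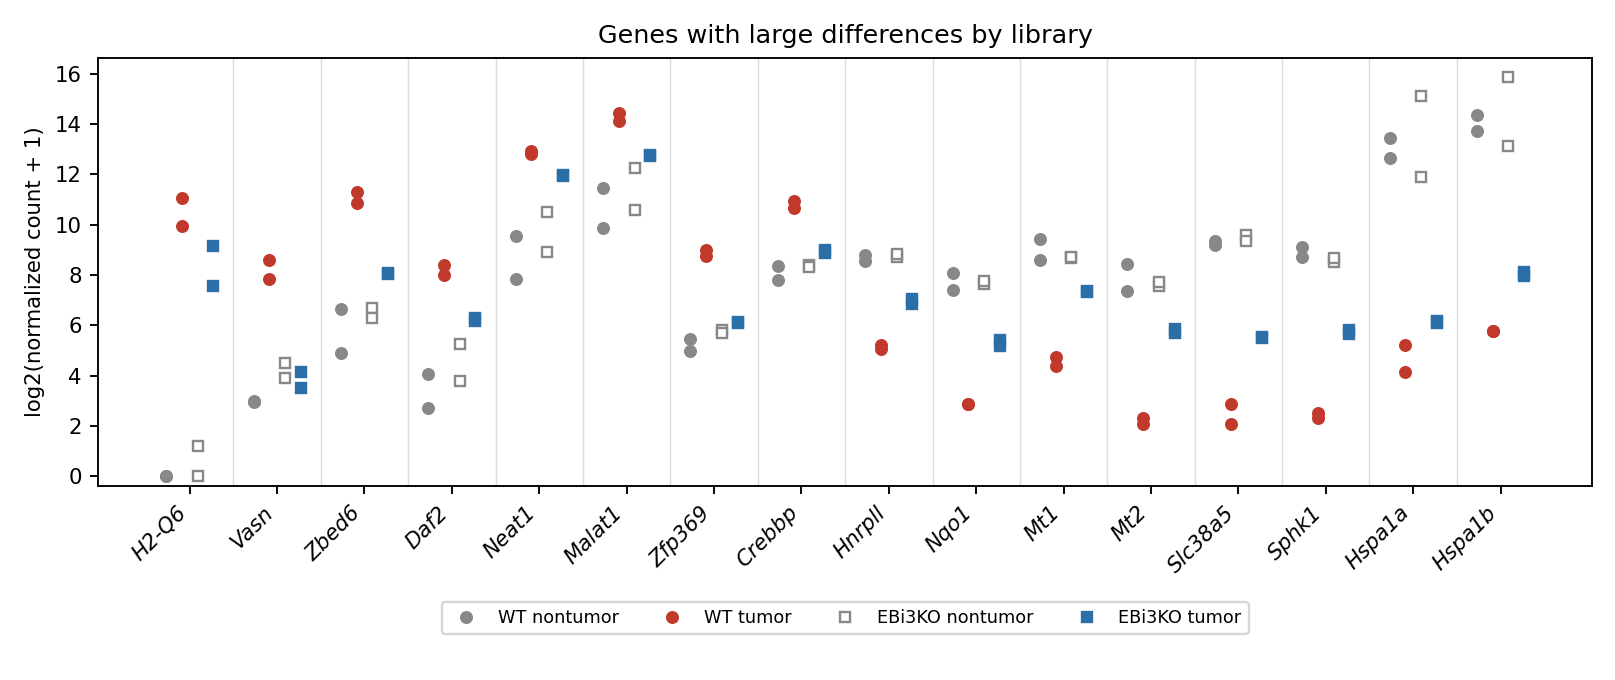
Level of 16 genes with large differences as log2(normalized count + 1) (y axis) in each library, 1 point a library: WT nontumor gray circles, WT tumor red circles, EBi3KO nontumor open squares, EBi3KO tumor blue squares. H2-Q6 is at 0 in both WT nontumor libraries, and Hspa1a and Hspa1b fall with the tumor in both genotypes.

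Markers of other cells in the preparation were lower in WT tumor across lists. Of 19 macrophage markers 18 were called lower and 0 higher (median -3.11), of 19 erythroid markers all 19 lower (median -3.76), of 17 granulocyte markers 16 lower and 1 higher (median -4.03), and of 22 T and NK cell markers 17 lower and 0 higher (median -1.34). C1qa, a complement chain of macrophages, went from 12654 and 16006 to 708 and 561 (log2 difference -4.49, SE 0.14). Klf1, the master regulator of erythroid genes, went from 1049 and 1424 to 19.9 and 15.7 (-6.03), and S100a9, of neutrophils, from 2028 and 794 to 55.6 and 37.8 (-4.76). No macrophage, erythroid, granulocyte or T and NK marker tested was without a read in WT tumor. Erythroid, macrophage and granulocyte markers were also lower in EBi3KO tumor, in 19 of 19, 16 of 19 and 10 of 17 tested members. Of the 22 T and NK markers 4 were called higher there and 1 lower (median 0.40). Of 12 dendritic cell markers 10 were called lower and 1 higher in WT (median -1.49). In EBi3KO 5 of these 12 were called lower and 0 higher (median -0.45). Over all tested genes 14.1% were called higher and 18.5% lower in EBi3KO. The part of these cells in the results above was not tested.

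The tumor contrast in EBi3KO shares no library with that in WT and serves as a second measurement under a different genotype, without the sex and prefix differences. There 1841 genes (14.1%) were called higher and 2401 (18.5%) lower. Of the genes higher in EBi3KO 91.9% were also higher in WT, and of those higher in WT 32.8% were also higher in EBi3KO. For lower genes the shares were 93.2% and 42.8%. Across genes, as a description, Pearson's r between the 2 contrasts was 0.773, and 0.775 after trend adjustment. Opposite calls were made for 30 genes higher in WT and lower in EBi3KO and for 33 genes lower in WT and higher in EBi3KO, Igj and Tnfrsf17 among the latter. The effects differed between genotypes by limma's test of the difference for 6881 genes (52.9%), and for 4991 (38.8%) after trend adjustment.

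**Figure D5:**
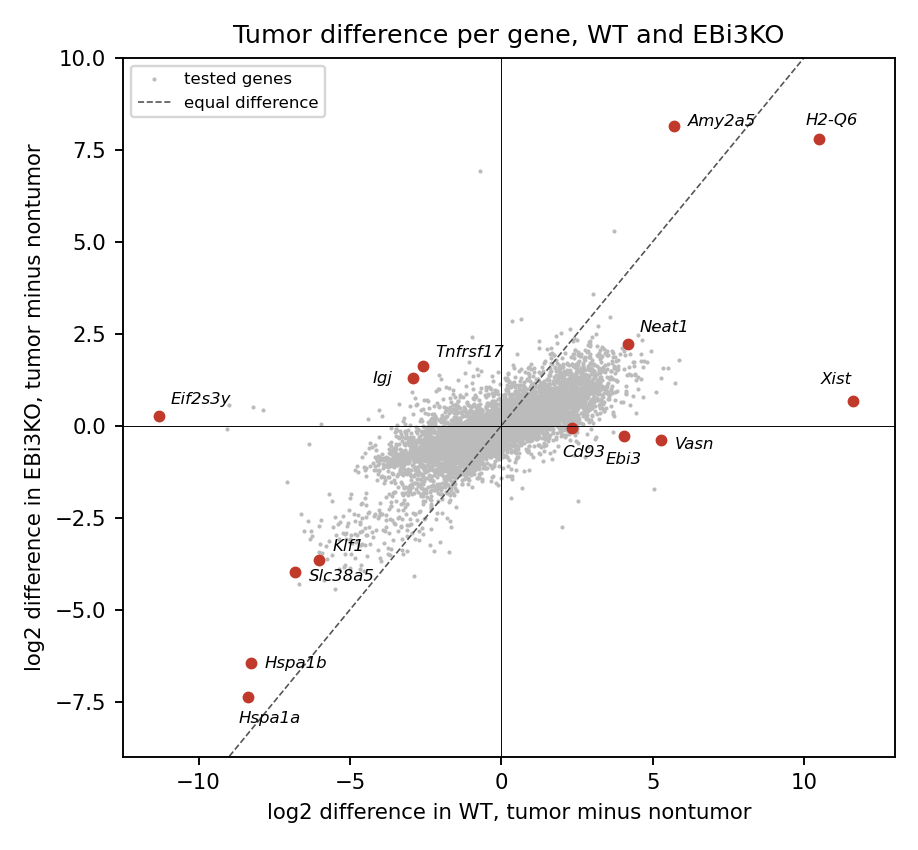
Log2 difference, tumor minus nontumor, of each tested gene in WT (x axis) and in EBi3KO (y axis), with 14 genes named in red and a dashed line of equal difference. Igj and Tnfrsf17 lie in the quadrant lower in WT and higher in EBi3KO, and Ebi3, Vasn and Cd93 lie near 0 on the EBi3KO axis.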

How the data were processed

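The deposited table holds 1 value per gene symbol and library, read here as a normalized signal: reads per gene divided by 1 size factor a library, made by the authors with Salmon, DESeq2 and the mm10 build per the submitters' processing notes (versions not given in the sources used here). RNA came from spleen B cells and was sequenced paired-end from stranded mRNA libraries, per the labels' protocols. All values (100% within a tolerance of 0.01) were whole multiples of a library's step, so reads and depths (21291892 to 28297319 reads) could be recovered; depth limits genes with few reads.

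Of 23302 entries, 13011 were tested, those whose mean over all 8 libraries reached 10. The tests used limma 3.58.1 in R 4.3.3 on log2(value + 1), with all 4 groups in the fit, no block and two-sided Benjamini-Hochberg adjusted p; fold changes are on that scale and understate changes of low genes. The difference between genotypes is the interaction term of the same fit. The trend adjustment took out, per library, the smooth dependence on transcript length and on GC content (GENCODE M21, 98.89% of tested genes). The scripts were tested on simulated data. On the recovered reads, edgeR 4.0.16 called 5253 genes higher and 5182 lower, and DESeq2 1.42.0 called 4824 and 4863. Other alternatives changed the pseudocount, filter, scaling, variance prior, libraries and block.

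The comparison and the gene lists were chosen with earlier results of these data known. Genes could be named if they were Ebi3, Il12a, Il27 or a sex check gene, among the 4 largest called rises or falls or the 3 most abundant members of a list, if their direction turned with the trend adjustment, or if they were among the 10 largest rises or falls or read in 1 group only. That rule allows 486 genes; the 89 named were picked from them with their values known, so they do not represent the whole. Some genes are not reported here. Whether same-numbered titles pair the WT libraries is not known here. The correlation of their deviations was -0.256, and with 2 libraries a group this value cannot decide it.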

Additional observations from a re-analysis of the deposited data

Results flagged for a closer look

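The effect of the tumor differed between WT and EBi3KO for 6881 of 13011 tested genes by limma's interaction term (adjusted p below 0.05), which is 52.9% of them. Among the genes named above, those whose difference passed both with and without the trend adjustment for length and GC content are given here with the WT effect minus the EBi3KO effect on the log2 scale. No explanation was tested, and in WT the tumor status falls together with the sex pattern and the title prefix.

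The difference was above 0 for Xist 10.96, Vasn 5.65, Ebi3 4.34, Zbed6 3.75, Zfp369 3.32, Daf2 3.1, H2-Q6 2.73, Cd93 2.4, Malat1 2.29, Crebbp 2.15, Srrm2 2.15, Sox4 2.14, Mll1 2.06, H2-Q1 1.86, Tlr9 1.72, Itpr1 1.68, Rictor 1.64, Bach2 1.63, Ebf1 1.4, Ceacam1 1.19, Bmf 1.11, Eif4g3 1.11, Prkcb 1.11, Malt1 0.96, Tlr1 0.87, Siglecg 0.82, Cd22 0.81. It was below 0 for Eif2s3y -11.56, Kdm5d -9.55, Uty -8.96, Ddx3y -8.3, Sdsl -4.22, Igj -4.22, Tnfrsf17 -4.19, Mt2 -3.85, Sphk1 -3.66, C1qa -3.28, Mt1 -3.1, Bcl2a1a -2.92, Slc38a5 -2.84, Ccl22 -2.7, Nqo1 -2.47, Amy2a5 -2.43, Klf1 -2.38, Ftl1 -2.06, Lair1 -1.99, Rps21 -1.82, Hnrpll -1.71, Rplp1 -1.65, Mrpl14 -1.6, Prdx2 -1.46, Psmb5 -1.31, Tlr8 -1.26, Tmsb4x -1.25, Klf2 -1.02, Eif4ebp1 -1.0, Nr1d1 -0.95, Eef1a1 -0.88, H2-D1 -0.63, Ltb -0.55, Gas5 -0.37. The last 2 turned with the trend adjustment, to 0.38 for Ltb (adjusted p = 0.00405) and 0.28 for Gas5 (adjusted p = 0.0277). A value below 0 can mean a deeper fall in WT, as for Mt1 and Mt2, or opposite directions, as for Igj and Tnfrsf17. Ebi3 is the gene that the EBi3KO B cells lack, so its value is no independent result.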

How the results depend on the processing

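The numbers of genes called higher and lower stayed within 1.5 times of 5157 and 5221 under all 24 alternatives run, 6 of them added after seeing the data; they were lowest with the length and GC trend removed and WT tumor replicate 2 left out (3884 and 4230), lowest among the planned ones with a mean of at least 50 (4411 and 4613), and ran from 4484 to 5095 higher and 4686 to 5126 lower without 1 library. With the title number as a replicate block 5060 were higher and 5098 lower, and with the crossed pairing 5229 and 5290. The genes themselves were less stable: of 413 called genes that the naming rule allows, 257 kept call and direction in every alternative, 120 turned in at least 1 and 36 lost their call without turning; 98 turned with the length and GC trend removed. The cause was not tested.

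The length trend, 2.35 between the longest and shortest decile, was 0.40 with the length and GC trend removed and 0.41 with the length trend removed, by construction. Named genes that turned with both trends removed stood at 0.16 (Cd79a), 0.22 (Cd79b), 0.57 (Vpreb3), 0.27 (H2-K1), 0.40 (Gas5), 0.29 (Ltb), -0.17 (Ms4a1) and -0.16 (Vav3), with the same values from the WT libraries alone. Leaving out also WT nontumor replicate 1, nontumor 2, tumor 1 or tumor 2 gave, in that order, 0.21, 0.10, 0.11 and 0.20 for Cd79a, 0.22, 0.21, 0.18 and 0.25 for Cd79b, 0.48, 0.66, 0.51 and 0.63 for Vpreb3, 0.35, 0.18, 0.24 and 0.30 for H2-K1, 0.43, 0.37, 0.46 and 0.34 for Gas5, 0.29, 0.28, 0.29 and 0.28 for Ltb, -0.17, -0.16, -0.22 and -0.12 for Ms4a1, -0.13, -0.18, -0.20 and -0.12 for Vav3. Kcnq1ot1 stood at -0.12 without WT nontumor replicate 2. With length alone removed, Cd79a stood at 0.05, Cd79b at 0.14, Vpreb3 at 0.54, H2-K1 at 0.13, B2m at 0.06, Gas5 at 0.57 and Vav3 at -0.03. Under quantile normalization Cd79a stood at 0.91, Cd79b at 0.84, H2-K1 at 0.87, H2-D1 at 0.54, B2m at 0.50, Actb at 0.62 and Tmsb4x at 0.00; quantile normalization gives genes of equal rank equal values, so it cannot show a change in a gene that keeps its rank, such as Eef1a1. Tsc22d3 ranged from -0.07 to 0.38 when 1 library was left out.

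Of 468 recomputed list medians, 100 moved by more than the spread between libraries, 46 of them after a trend removal. With length and GC removed, medians were 0.89 (chromatin), 0.67 (zinc finger), 0.41 (receptor signalling), 0.42 (inhibitory receptors), 0.13 (PI3K and mTOR), 0.32 (clock), 0.01 (innate sensors), 0.24 (MHC class I), 0.40 (immature B), -0.29 (BCL2), -0.39 (core spliceosome), -0.67 (translation factors), -0.46 (mitochondrial ribosome), -0.49 (actin and tubulin), -0.58 (proteasome), -0.32 (cytokines), -1.14 (redox), -0.94 (cytosolic ribosome), 0.10 (plasma cell), -3.37 (macrophage), -3.20 (granulocyte) and -1.01 (T and NK). With length alone removed, they were, in the same order, 0.82, 0.79, 0.27, 0.44, -0.06, 0.31, -0.05, 0.19, 0.52, -0.39, -0.37, -0.57, -0.48, -0.52, -0.57, -0.65, -1.18, -0.93, 0.13, -3.51, -3.21 and -1.05, with 0.98 for long noncoding RNAs and 0.28 for SR and hnRNP genes. Quantile normalization gave 1.11 (follicular), 0.24 (innate sensors), 0.44 (MHC class I), 0.51 (SR and hnRNP), -0.67 (translation factors), -0.76 (actin and tubulin), -1.28 (cytokines) and -0.65 (cytosolic ribosome). Upper-quartile scaling gave 0.50 (PI3K and mTOR), 0.05 (innate sensors), -0.08 (MHC class I), 0.14 (SR and hnRNP), -0.93 (translation factors), -1.48 (cytokines) and -0.53 (plasma cell). A mean of at least 50 gave 0.06 (inhibitory receptors), 0.47 (PI3K and mTOR), -0.17 (MHC class I) and -1.63 (cytokines), and a pseudocount of 5 gave -1.13 (cytokines), -3.47 (erythroid), -3.34 (granulocyte) and -1.19 (T and NK). Without X and Y genes the long noncoding RNAs had a median of 0.39.

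Leaving out 1 library in turn gave medians of -1.16 to -0.91 (actin and tubulin), 0.06 to 0.42 (inhibitory receptors), 0.46 to 0.75 (receptor signalling), 1.56 to 1.93 (chromatin), 0.28 to 0.56 (clock), -1.42 to -1.15 (cytokines), 0.51 to 0.75 (follicular), -0.05 to 0.36 (immature B), -4.12 to -3.39 (erythroid), -1.40 to -1.20 (T and NK), -0.06 to 0.06 (MHC class I), 0.54 to 0.66 (PI3K and mTOR), -1.18 to -0.95 (mitochondrial ribosome), 0.46 to 0.96 (long noncoding RNAs), -0.94 to -0.68 (core spliceosome), 0.16 to 0.26 (SR and hnRNP), 0.04 to 0.16 (innate sensors) and 0.83 to 1.04 (zinc finger).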
